A study of Mus musculus with 4 samples.

Results

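The genes described here encode the respiratory chain and the ATP synthase of mitochondria, together with a few genes that carry the same symbol stems. They were taken from the deposited expression table by symbol, as every gene beginning with Nduf, Uqcr or Atp5, the genes Sdha to Sdhd, Cyc1, and those beginning with Cox4 to Cox8. The rule found 91 of 21705 genes, namely 42 for complex I, 4 for complex II, 9 for complex III, 19 for complex IV and 17 for complex V. Of these, 83 encode structural subunits, and 8 encode other proteins. Ndufaf1 to Ndufaf4 are assembly factors of complex I, Cox7a2l joins complexes into larger assemblies, Cox4nb (now Emc8) belongs to a complex of the endoplasmic reticulum, Atp5s is now Dmac2l, and Atp5sl is now Dmac2. A gene was called measured where its mean value reached 73.3 on the deposited scale, or 5 ppm of the mean library total. By this filter 82 of the 91 genes were measured, of which 75 were structural subunits. The gene just inside the filter was Ndufaf2 with a mean of 135, and the gene just outside it was Atp5s with a mean of 40.7. The 13 subunits encoded by mitochondrial DNA were not analysed here.

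Respiratory complexes I and II take electrons from NADH and from succinate and pass them by way of coenzyme Q to complex III, cytochrome c and complex IV, where oxygen is reduced. Complexes I, III and IV pump protons across the inner membrane, and complex V, the ATP synthase, lets them flow back to make ATP. Resting T cells are known to rely largely on this pathway for ATP, and activated T cells are known to enlarge their mitochondria while they also raise glycolysis.

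Splenic T cells of C57bl/6 mice were sorted by flow cytometry for CD4 or CD8, and mRNA was sequenced from 4 libraries, with 1 library in each group. The groups were CD4 and CD8 cells from the day of an allogeneic bone marrow transplant, with the word Donor in the titles, and CD4 and CD8 cells collected later. The later libraries are placed on day 14 by the collection protocol and on day 12 by their titles, and are called the libraries after transplant here. Cells of 5 mice were pooled for each library ahead of the sort, so differences between mice cannot be seen. The labels used here give neither age nor sex, no arm with a genetically matched transplant is among the samples, and nothing states whether recipient T cells were kept out of the later libraries. One label field calls the source innate lymphoid cells, and another gives the cell type as splenic T cells. Values are quoted as a run of 4 numbers, first the CD4 pair, at and then after transplant, and then the CD8 pair in the same sequence.

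Depth was 23633544, 16130849, 17972481 and 9873851 estimated reads, and 1 read was worth 0.664, 0.877, 0.826 and 1.41 on the deposited scale. The sorted markers matched the cell type labels. Cd4 stood at 15134, 17092, 66.1 and 94.5, Cd8a at 177, 295, 21107 and 17999, and the 5 T cell markers in the table summed to 42318, 36487, 45094 and 36697 with none at 0. With 1 library in each group, differences had no replicate check and were not tested. Ratios are given with 95% exact conditional binomial intervals, computed from estimated reads, which reflect counting error alone.

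As a group, the chain and ATP synthase genes took a larger part of the RNA after transplant in both cell types. The 91 genes together held 0.716% of the CD4 library at transplant and 0.932% of the CD4 library after it. In the CD8 libraries they held 0.761% at transplant and 1.04% after it. Both later libraries lay above both libraries at transplant. Each gene was then compared by a log2 ratio of the normalised values, to each of which 14.7 had been added, or 1 ppm of the mean library total.

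In the CD4 libraries the median log2 ratio after against at transplant was 0.26 over the 82 measured genes, with quartiles at 0.06 and 0.48, beside a median of -0.08 over all 9933 measured genes, with quartiles at -0.54 and 0.43. Of the 82 genes, 63 had a ratio above 0 and 19 below 0, where 45.9 and 54.1% of all measured genes did. At least 1.5-fold higher values were seen for 16 genes, or 19.5%, beside 20.2% of all genes, and at least 1.5-fold lower values for 3 genes, or 3.66%, beside 22.9%. The spread was narrow, with an interquartile range of 0.42 against 0.97 over all genes. Most of the genes were thus modestly higher, and the share past 1.5-fold on the high side was close to that of all genes. No gene was 2-fold higher, where 12.1% of all genes were, and Cox7a2l was 2-fold lower, where 10.8% were. The counting interval lay wholly above 1 for 59 genes, beside 38.4% of all genes, and wholly below 1 for 9, beside 46.5%.

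In the CD8 libraries the median log2 ratio was 0.39, with quartiles at 0.15 and 0.63, beside 0.02 over all genes, with quartiles at -0.49 and 0.58. The ratio was above 0 for 72 of the 82 genes and below 0 for 10, beside 51 and 49% of all measured genes. At least 1.5-fold higher values were seen for 27 genes, or 32.9%, beside 24.9% of all genes, and at least 1.5-fold lower values for 3, or 3.66%, beside 21.6%. Cox5a, Atp5g3 and Ndufc2 were at least 2-fold higher, as were 15% of all genes, and Cox7a2l was at least 2-fold lower, as were 11%. The counting interval lay wholly above 1 for 61 genes, beside 42.3% of all genes, and wholly below 1 for 8, beside 39.9%.

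The scale between libraries bears on these counts. When every library was scaled to the same total, 28 genes were at least 1.5-fold higher and 1 lower in the CD4 comparison, against 16 and 3. These are 34.1 and 1.22% of the members, beside 24.6 and 17.8% of all genes under that scaling. In the CD8 comparison the count of at least 1.5-fold higher genes ran from 18 with the trimmed mean of M-values, or 22% beside 22.3% of all genes, to 35 with equal totals, or 42.7% beside 27.8%. The distance of the members' median from that of all genes was 0.33 in CD4 and 0.36 in CD8 under each of the 5 scalings. A scaling shifts the ratios of all genes by nearly the same amount, so this distance could hardly change and is no check. Over these scalings the ratio stayed above 0 for 63 genes in CD4 and 66 in CD8.

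Other measurements moved between the same libraries. The 6 genes of cell division on the list used (among them Mki67, Top2a and Cdk1) summed to 2124, 31807, 1630.3 and 33089, and all 6 were at least 2-fold higher after transplant in both cell types. The 6 erythroid genes in the table summed to 549, 3427, 128 and 2853, again with all 6 at least 2-fold higher in both. The 6 neutrophil genes summed to 15388, 28131, 2765 and 24024, with 3 at least 2-fold higher in CD4 and 6 in CD8, and none of the erythroid or neutrophil genes was at 0 in any library. The 8 macrophage and monocyte genes in the table summed to 6032, 3205, 824 and 3083, with 5 at least 2-fold lower in CD4 and 6 higher in CD8, and Cd14 at 0 in the CD8 library at transplant. The 6 dendritic cell genes summed to 845, 405, 354 and 1499, with Siglech at 0 in the CD8 library after transplant. In CD4 1 of them was at least 2-fold higher and 2 lower, and in CD8 2 were higher and 0 lower. Itgax led these sums in all libraries but the later CD4 library, at 579, 136, 195 and 1119. The 5 NK cell genes in the table summed to 1104, 779.6, 1875 and 2098, with Ncr1 and Klra8 at 0 in the CD4 library after transplant and Klra8 in the CD8 library after it. In CD4 4 of them were at least 2-fold lower and 1 higher, and in CD8 2 were lower and 1 higher. Eomes, the higher gene in CD4, stood at 295, 687, 1614 and 1858 and made up most of the last 3 sums. The 6 B cell genes summed to 248, 390.1, 415 and 224, with Pax5 at 0 in the CD4 library at transplant and in both CD8 libraries, and Ms4a1 in the later CD8 library. In CD4 1 of them was at least 2-fold higher and 1 lower, and in CD8 0 were higher and 1 lower. The higher gene in CD4 was Cd22, at 133, 353, 97.5 and 171. Cd79a, Cd79b and Ms4a1 were lower in the later library of both cell types. The 4 platelet genes summed to 41.8, 28.1, 31.4 and 16.9, with Ppbp at 0 in both CD8 libraries, and Pf4 and Gp9 at 0 in the later one. The part of dividing or other cells in the ratios of the chain genes was not tested. In bulk RNA, fewer cells of a type and less RNA per cell cannot be told apart.

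**Figure D1:**
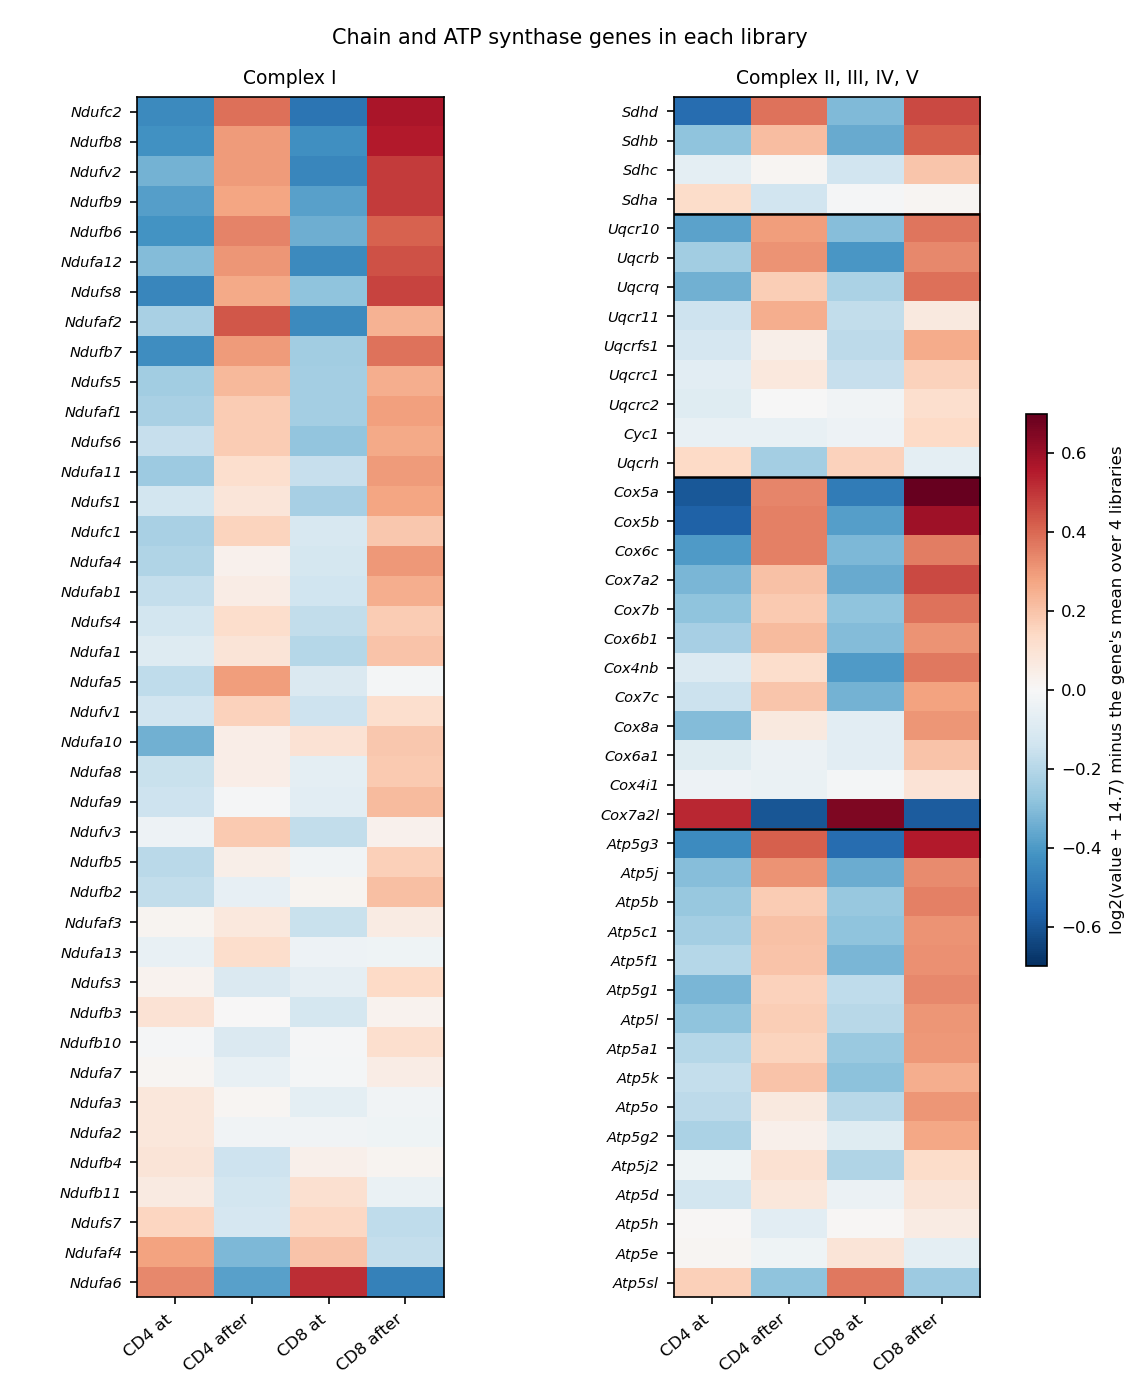
Level of the measured genes in the 4 libraries, without 1 gene that is not reported here, as the log2 difference from the gene's own mean over the libraries, arranged by complex. Rows are genes and columns are libraries. Most rows are higher in both libraries after transplant, and Cox7a2l and Ndufa6 show the reverse.

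Promoters are shown for 4 genes at the ends of the range. Cox5a and Atp5g3 had the highest ratios of complexes IV and V, and Cox7a2l and Ndufa6 the lowest of all. These windows were chosen because genes of the chain are known to share binding motifs for the factors NRF1, GABPA (of the ETS family) and YY1. Each window runs from 250 bases before the start of the gene to 50 bases after it, 5′ to 3′ on the gene's strand, from RefSeq on GRCm38.p6. Capitals mark TGCGCA, the core of the NRF1 motif, CCGGAAG, a core of ETS sites, or ATGGCG, the core of the YY1 motif, searched on both strands.
Cox5a, chr9:57520982-57521281, plus strand: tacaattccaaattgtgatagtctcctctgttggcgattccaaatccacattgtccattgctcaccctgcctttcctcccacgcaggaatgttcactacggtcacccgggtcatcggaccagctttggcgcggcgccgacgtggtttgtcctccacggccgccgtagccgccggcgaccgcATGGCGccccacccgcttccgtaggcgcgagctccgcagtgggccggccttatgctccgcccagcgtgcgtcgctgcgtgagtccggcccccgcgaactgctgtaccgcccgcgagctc
Atp5g3, chr2:73911277-73911576, minus strand: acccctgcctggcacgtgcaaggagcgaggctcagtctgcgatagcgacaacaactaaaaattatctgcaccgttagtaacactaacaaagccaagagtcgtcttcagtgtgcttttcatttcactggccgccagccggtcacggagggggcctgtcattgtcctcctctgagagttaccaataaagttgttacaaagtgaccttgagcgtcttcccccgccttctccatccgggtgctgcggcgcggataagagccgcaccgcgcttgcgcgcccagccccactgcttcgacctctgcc
Cox7a2l, chr17:83514284-83514583, minus strand: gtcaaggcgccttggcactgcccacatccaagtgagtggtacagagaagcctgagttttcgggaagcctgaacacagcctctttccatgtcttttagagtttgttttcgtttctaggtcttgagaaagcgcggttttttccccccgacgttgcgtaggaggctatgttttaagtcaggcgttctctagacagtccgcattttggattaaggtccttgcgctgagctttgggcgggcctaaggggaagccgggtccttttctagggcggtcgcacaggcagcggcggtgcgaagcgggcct
Ndufa6, chr15:82354242-82354541, minus strand: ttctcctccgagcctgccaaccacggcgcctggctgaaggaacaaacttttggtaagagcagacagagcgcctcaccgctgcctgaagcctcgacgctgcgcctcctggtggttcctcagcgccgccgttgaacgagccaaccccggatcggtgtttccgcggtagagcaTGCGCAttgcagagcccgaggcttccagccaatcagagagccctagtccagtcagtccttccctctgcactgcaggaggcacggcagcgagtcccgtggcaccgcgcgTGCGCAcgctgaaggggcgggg
The Cox5a window held 1 YY1 core, at position -69 from the start. The Ndufa6 window held 2 NRF1 cores, on either side of the start, and the windows of Atp5g3 and Cox7a2l held none of the 3 motifs. A match is a stretch of letters and does not show that a factor binds there.

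Over the 74 of 91 genes with a window in the table, 25.7% held the NRF1 core, 23% the ETS core and 27% the YY1 core. Among the 8000 measured genes with a window the shares were 17.6, 23.4 and 19.7%, and among all 27025 genes with a window 8.79, 9.93 and 10.2%. At least 1 of the 3 was present in 63.5% of the chain gene windows, beside 48.3% of those of measured genes. The genes are also short, with a median transcript of 808 bases against 2909 over all measured genes. The 49 genes with transcripts of up to 1000 bases had median log2 ratios of 0.37 in CD4 and 0.42 in CD8, and the 33 longer ones 0.22 and 0.33. All 609 measured genes with transcripts of up to 1000 bases had medians of 0.09 and 0.19.

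**Figure D2:**
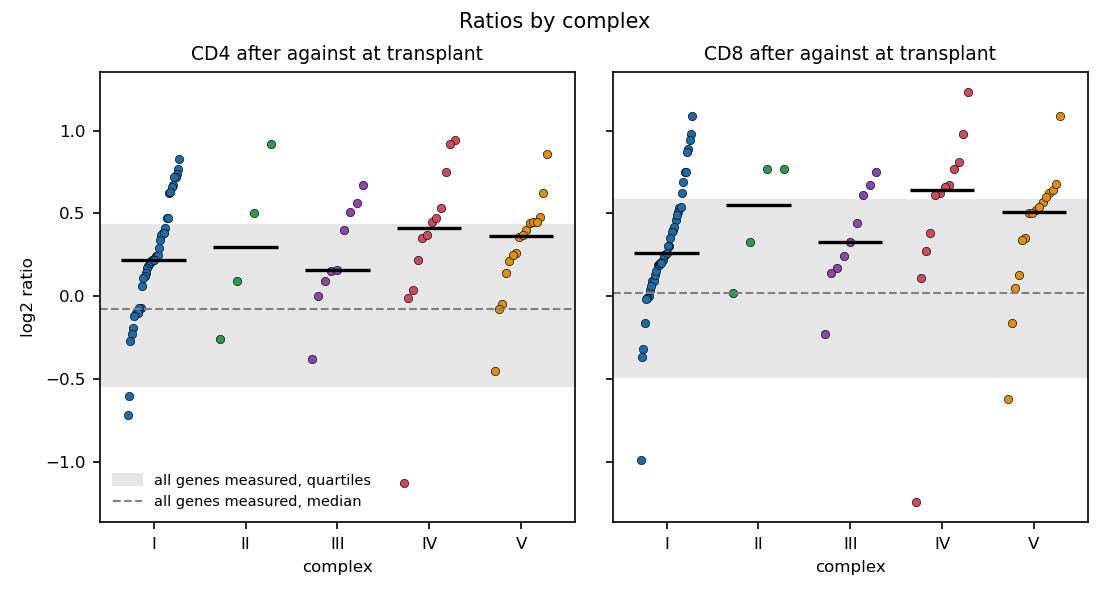
Log2 ratio after against at transplant for each measured gene, by complex, in the CD4 and the CD8 libraries. Points are genes and bars are medians, and the median of complex IV is the highest in both cell types.

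The complexes differed in level and in ratio. By summed subunit values, complex V was the largest in every library, at 2677, 3894, 2794 and 4348 ppm of the library. The sum for complex IV was 862, 1257, 938 and 1464 ppm. The sums of complexes IV and V were both 1.31 times as high after transplant in CD4 and 1.46 times as high in CD8 on the deposited scale. For complex I the sum was 1705, 2209, 1832 and 2431 ppm, and the factors were 1.17 and 1.24. Complex II stood at 497, 615, 504 and 694 ppm, with factors of 1.12 and 1.29. Complex III stood at 798, 958, 844 and 1066 ppm, with the smallest factors, 1.08 and 1.18. The sums cover structural subunits only and are led by the most abundant of them. The medians count each measured gene alike and include those that are no structural subunit, such as Cox7a2l and Cox4nb under complex IV. The complex IV sum thus leaves out Cox7a2l, which was lower after transplant. Median log2 ratios in CD4 were 0.22 for complex I, 0.29 for II, 0.16 for III, 0.41 for IV and 0.36 for V, and in CD8 they were 0.26, 0.55, 0.33, 0.64 and 0.51.

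Complex I, NADH dehydrogenase, has a matrix arm that carries the flavin and the iron-sulfur clusters and a membrane arm that pumps protons. Of its 41 measured genes, 30 had a ratio above 0 in CD4 and 35 in CD8, and 9, or 22%, were at least 1.5-fold higher in each comparison, close to the 20.2 and 24.9% of all genes. A pair of core subunits of the matrix arm were modestly higher after transplant. Ndufv1, which holds the flavin, stood at 1037, 1275, 1029 and 1236 (log2 ratios 0.29 in CD4 and 0.26 in CD8). Ndufs1, the largest iron-sulfur subunit, stood at 1383, 1604, 1282 and 1829.6 (0.21 and 0.51). Both were higher in the later library of each cell type, by less than 1.5-fold.

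The 9 genes at least 1.5-fold higher were core subunits, accessory subunits and 1 assembly factor. Ndufc2, an accessory subunit of the membrane arm, had the highest ratio of the complex at 499, 900.3, 477 and 1028, which was 1.81 times as high in CD4 (interval 1.64 to 1.99) and 2.16 times in CD8 (1.93 to 2.41). Ndufc1, its neighbour in the membrane arm and the measured complex I subunit with the smallest values, stood at 153, 204, 167 and 209 (log2 ratios 0.38 and 0.30). The core iron-sulfur subunits Ndufv2 and Ndufs8 were also at least 1.5-fold higher in both, with log2 ratios of 0.63 and 0.72 in CD4 and 0.94 and 0.75 in CD8. So were 4 genes of the membrane arm, Ndufb6, Ndufb7, Ndufb8 and Ndufb9, with ratios from 0.66 to 0.77 in CD4 and from 0.62 to 0.98 in CD8. The list closed with Ndufa12, an accessory subunit of the matrix arm, at 0.62 and 0.89, and the assembly factor Ndufaf2. Exons of other genes overlap 39% of the Ndufb6 transcript on the opposite strand, and 19.7 and 28.6% of the Ndufb8 and Ndufb9 transcripts on the same strand.

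Ndufa6 stood apart from the other subunits of the complex. It encodes an accessory subunit that holds an acyl carrier protein on the matrix arm. Its values were 1146, 692, 1298 and 647, and both libraries after transplant lay below both at transplant. The later value was 0.603 times the value at transplant in CD4 (0.554 to 0.657) and 0.499 times in CD8 (0.448 to 0.554), which on the log2 scale used was -0.72 and -0.99. Ndufs7, a core subunit with the iron-sulfur cluster next to coenzyme Q, was lower by smaller amounts, at 686, 566, 683 and 543 (log2 ratios -0.27 and -0.32), and Ndufb11 of the membrane arm at 1321, 1159, 1369 and 1226 (-0.19 and -0.16). The ratios of Ndufa6, Ndufs7 and Ndufb11 stayed below 0 under all 5 scalings in both cell types.

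The 4 assembly factors of complex I did not share a direction. These chaperones help to build the complex and are absent from the finished enzyme. Ndufaf1 stood at 220.5, 297, 219 and 322 (log2 ratios 0.41 and 0.53) and Ndufaf2, which occupies the place of Ndufa12 during assembly, at 109, 181, 91.7 and 157 (0.67 and 0.69). Ndufaf3 stood at 161, 168, 141 and 166 (0.06 and 0.22), with counting intervals that included 1 in both cell types. Ndufaf4 stood at 511, 333, 481 and 369.5 (-0.60 and -0.37), lower in the later library of each cell type. At these values an Ndufaf2 ratio of 1.71 in CD8 had an interval of 1.3 to 2.24, so the size of the difference was loosely fixed.

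Complex II, succinate dehydrogenase, is shared with the citrate cycle and is built from 4 nuclear genes, all measured. Sdhd, a membrane anchor, had values of 1094, 2076, 1283 and 2202, which was 1.9 times as high after transplant in CD4 (1.78 to 2.02) and 1.72 times in CD8 (1.6 to 1.84). Sdhb, the iron-sulfur subunit, stood at 1324, 1877, 1258 and 2158, with factors of 1.42 (1.33 to 1.51) and 1.72 (1.6 to 1.84). Both genes were higher in both later libraries than in both libraries at transplant. Sdhc, the other anchor, stood at 1215, 1290.4, 1161 and 1461 (log2 ratios 0.09 and 0.33). Sdha, the flavin subunit that oxidises succinate, stood at 4159, 3459, 3785 and 3846, a log2 ratio of -0.26 in CD4 and 0.02 in CD8. Within this complex the plain ratio in CD4 thus ran from 0.832 for Sdha (0.799 to 0.866) to 1.9 for Sdhd. In CD8 the interval of the Sdha ratio included 1, at 0.969 to 1.07.

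Complex III, the cytochrome bc complex, showed the smallest summed difference. Its catalytic genes were close to level in CD4 and slightly higher in CD8 after transplant. Cyc1, the haem-bearing subunit that hands electrons to cytochrome c, stood at 1497, 1495, 1516 and 1709 (log2 ratios -0.00 and 0.17). Uqcrfs1, the Rieske iron-sulfur protein, stood at 1467, 1637, 1399 and 1909.7 (0.16 and 0.44). Uqcrc2, a large core protein facing the matrix and the subunit with the largest values, stood at 2867, 3044, 2989.6 and 3303 (0.09 and 0.14).

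The small subunits of complex III spread more widely. Uqcr10 stood at 651, 1044, 688 and 1106 (0.67 and 0.67), and Uqcrb, which lies near the coenzyme Q site, at 451, 671, 401 and 683 (0.56 and 0.75). In CD8, Uqcrq also passed 1.5-fold, with a log2 ratio of 0.61. Uqcr11, the subunit with the smallest values, stood at 309, 413, 303 and 361 (0.40 and 0.24). Uqcrh, the hinge protein between the haem subunit and cytochrome c, had the lowest ratio of the complex at 2413, 1855, 2449 and 2083, with log2 ratios of -0.38 and -0.23 that stayed below 0 under all 5 scalings.

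Complex IV, cytochrome c oxidase, had the highest median ratios. Its catalytic subunits are encoded by mitochondrial DNA, and the nuclear genes described here encode the subunits around them. Cox5a, on the matrix side, had the highest ratio of all measured members in both cell types, at 1029.9, 1986, 1109 and 2619. The factor was 1.93 in CD4 (1.81 to 2.06) and 2.36 in CD8 (2.2 to 2.54). Exons of another gene on the opposite strand overlap 41.7% of the Cox5a transcript, and the table does not say whether reads were counted by strand. Cox5b, the other matrix-side subunit of the pair, stood at 809, 1545, 920.0 and 1827, with factors of 1.91 (1.77 to 2.05) and 1.99 (1.83 to 2.15), and has a similar copy elsewhere in the genome. Cox6c, a small membrane subunit, was the third to pass 1.5-fold in both, with log2 ratios of 0.75 and 0.67.

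In the CD8 comparison 8 of the 12 measured genes named under complex IV, or 66.7%, were at least 1.5-fold higher, beside 24.9% of all genes. Beside Cox5a, Cox5b and Cox6c these were Cox7a2, Cox4nb, Cox7b, Cox6b1 and Cox7c, with ratios from 0.61 to 0.81. Cox4nb was counted by its symbol and is no subunit of the enzyme. Part of this count depended on the scale. Across the scalings, Cox7b, Cox6b1 and Cox7c fell to 0.57, 0.53 and 0.52 in CD8, below the 0.58 of a 1.5-fold call. Cox6c fell to 0.58, at the limit of the call. Cox5a, Cox5b, Cox7a2 and Cox4nb stayed above it, with lowest values of 1.14, 0.89, 0.73 and 0.68. Cox4i1, the largest nuclear subunit, was close to level at 3590.3, 3576, 3651 and 3942 (log2 ratios -0.01 and 0.11). Cox6a1, a regulatory subunit at the dimer face, stood at 1586, 1634, 1601 and 1932 (0.04 and 0.27). Cox8a, the smallest subunit, stood at 1618, 2093, 1899.5 and 2477 (0.37 and 0.38). Among the structural subunits of this enzyme the log2 ratio thus ran from -0.01 to 0.94 in CD4 and from 0.11 to 1.23 in CD8. Exons of Cox4nb on the opposite strand overlap 18% of the Cox4i1 transcript.

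Cox7a2l had the lowest ratio of all measured members in both comparisons. It encodes a relative of the Cox7a subunits that tethers complex III to complex IV, and the C57BL/6 strain is known to carry a shortened form of the protein. Its values were 7667, 3504, 8355 and 3540.2, resting on 11547, 3997, 10116 and 2510 estimated reads. Both later libraries were below both libraries at transplant. The value at transplant was 2.19 times the later value in CD4 (2.11 to 2.27) and 2.36 times in CD8 (2.26 to 2.47). Its paralogue Cox7a2, the subunit of the finished enzyme in most tissues and the measured complex IV subunit with the smallest values, differed the other way at 765, 1109.8, 749 and 1329 (log2 ratios 0.53 and 0.81). Per kilobase of transcript, Cox7a2l stood at 7126, 3256, 7764 and 3290.1 and Cox7a2 at 1161, 1684, 1137 and 2016, so the gap in level between the paralogues was narrower after transplant. A similar copy of Cox7a2l is present elsewhere in the genome, so its reads may be shared.

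**Figure D3:**
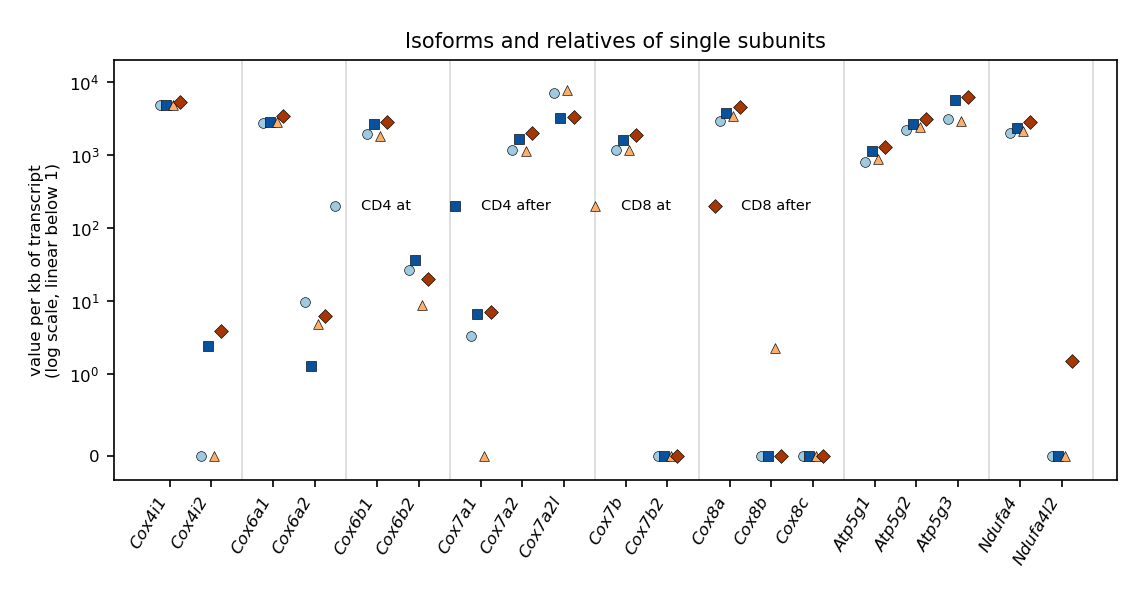
Value per kilobase of transcript for isoforms and relatives of single subunits in the 4 libraries, on an axis that is logarithmic above 1 and linear below it. In each set of the oxidase the form of most tissues is high in all 4 libraries and the tissue-restricted forms are far lower, with Cox6b2 the highest of them.

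Where the oxidase has alternative isoforms, the libraries held mainly the form of most tissues. Cox4i2, the form known from lung, stood at 0, 1.75, 0 and 2.82, each at or below the floor of 3 reads, which is 1.99, 2.63, 2.48 and 4.23 in these libraries. Cox6a2 and Cox7a1, forms of heart and skeletal muscle, stood at 6.61, 0.877, 3.3 and 4.23 and at 1.33, 2.63, 0 and 2.82. Cox8b, a further muscle form, was at 0 in all libraries but the CD8 library at transplant, where 1 read gave 0.826. Cox7b2 and Cox8c, known from testis, were at 0 in all 4 libraries, and Cox6b2, also known from testis, stood at 14.6, 20.2, 4.96 and 11.3. Their widely expressed counterparts Cox6b1 and Cox7b stood at 1185, 1627, 1126 and 1738 and at 1171, 1625, 1172 and 1862. Ndufa4, first assigned to complex I and now counted with the oxidase, stood at 1208, 1427, 1285 and 1728 (log2 ratios 0.24 and 0.42), whereas its relative Ndufa4l2, known from cells short of oxygen, had 1 read in the CD8 library after transplant and none in the others.

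Complex V, the ATP synthase, held the highest levels. Per kilobase of transcript, Atp5b had the highest mean of all members, 7396, and the median over complex V subunits was 2247, beside 2212 for complex IV, 1333 for II, 1176 for III and 817 for I. Atp5b encodes the catalytic beta subunit, and its values were 11594, 15720.4, 11589 and 17783, with factors of 1.36 (1.33 to 1.38) in CD4 and 1.53 (1.5 to 1.57) in CD8. Atp5a1, its alpha partner in the catalytic head, stood at 9635, 12329.6, 9249 and 13691, with factors of 1.28 (1.25 to 1.31) and 1.48 (1.44 to 1.52). Both were higher in both later libraries. The stalk subunits Atp5c1 (log2 ratios 0.45 and 0.60), Atp5f1 (0.40 and 0.64) and Atp5j (0.62 and 0.68) were higher as well, of which Atp5j alone passed 1.5-fold in CD4 and all 3 did in CD8. Exons of Gabpa on the opposite strand overlap 19.1% of the Atp5j transcript.

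The genes for the proton-carrying ring of the ATP synthase differed in ratio although they encode the same mature protein. Atp5g3 had the highest ratio of the complex, at 2251, 4103, 2108 and 4505, with factors of 1.82 (1.74 to 1.91) and 2.14 (2.03 to 2.25). Atp5g1 stood at 475, 669.7, 525 and 757 (log2 ratios 0.48 and 0.52), and Atp5g2 at 1623, 1941, 1786 and 2288 (0.26 and 0.35). Atp5g1 and Atp5g2 have similar copies elsewhere in the genome and Atp5g3 has none by the same search. Per kilobase, Atp5g3 stood at 3153, 5747, 2953 and 6309 and Atp5g2 at 2220.0, 2655, 2443 and 3129.6, so Atp5g3 was the highest of the ring genes in every library.

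At the low end of complex V, Atp5e, the epsilon subunit of the central stalk, stood at 1866, 1808, 1969 and 1763 (log2 ratios -0.05 and -0.16). Atp5h of the peripheral stalk stood at 1374, 1298, 1377 and 1422 (-0.08 and 0.05). Neither ratio reached 1.5-fold in either cell type. Atp5k, a membrane subunit and the one with the smallest values, stood at 404, 525, 370.0 and 546 (0.37 and 0.54). Atp5sl, whose symbol came from its likeness to Atp5s and whose product is known in complex I assembly, had the lowest ratio listed under the complex at 519, 377, 600.4 and 385 (-0.45 and -0.62). Thus Atp5sl, Ndufaf4 and Cox7a2l, which are not structural subunits, were 3 of the 4 genes that were at least 1.5-fold lower in 1 or both comparisons, and Ndufa6 was the only structural subunit among them. Atp5s stood below the filter at 52.5, 41.2, 43.8 and 25.4.

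Within each complex the subunits differed widely in level although the assembled enzyme holds them in fixed proportions. Per kilobase, averaged over the libraries and among measured subunits, complex I spanned 18.7-fold, from Ndufab1, the acyl carrier protein, at 124 to Ndufa4 at 2315. Ndufa4 is now counted with the oxidase, and without it the highest was Ndufa6 at 1603. Complex III spanned 7.41-fold, from Uqcrq at 543 to Uqcrh at 4022, and complex V 7.27-fold, from Atp5g1 at 1018 to Atp5b. Complex II spanned 3.58-fold, from Sdhc at 404 to Sdhb at 1448, and complex IV 3.4-fold, from Cox7b at 1456 to Cox4i1 at 4953. These levels rest on 1 chosen transcript per gene, and 24 measured members have a similar copy elsewhere in the genome that may share their reads. Of the genes described above these include Ndufa12, Ndufb11, Uqcr10, Uqcrb, Uqcr11, Cox6c, Cox7b, Cox7c, Atp5c1 and Atp5h.

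**Figure D4:**
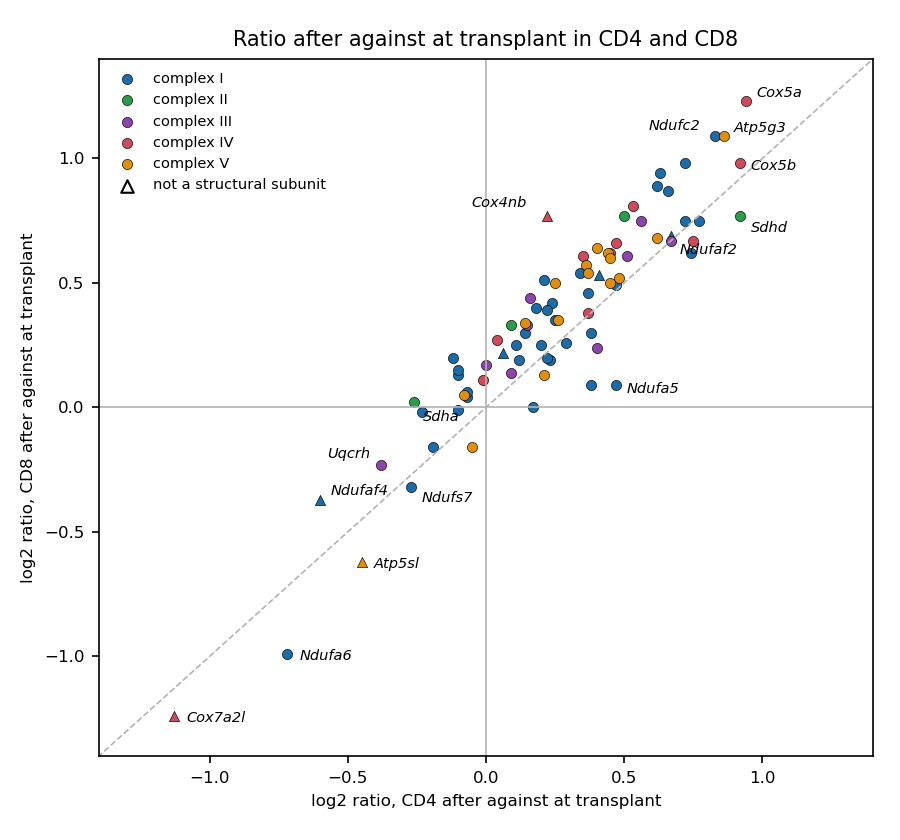
Log2 ratio after against at transplant in the CD8 libraries against the same ratio in the CD4 libraries for the 82 measured genes, coloured by complex. The points follow the diagonal, with Cox5a at the upper right and Cox7a2l at the lower left.

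CD4 and CD8 cells differed little from each other in these genes. At transplant the median log2 ratio of CD4 against CD8 was 0.00, beside 0.14 over all genes, and 42 genes had a ratio above 0 and 40 below, where 72.1 and 27.9% of all genes did. None of the 82 genes was 1.5-fold higher or lower, where 10.3 and 2.99% of all genes were, and the 2-fold shares of all genes were 4.92 and 1.48%. The counting interval lay wholly above 1 for 13 genes and wholly below 1 for 14, beside 50.1 and 13.7% of all genes. The extremes were Ndufa10, an accessory subunit of complex I, with 0.738 times the CD8 value (0.688 to 0.792, log2 ratio -0.43), and Cox4nb at 504 and 407 (0.30). After transplant the median was -0.13, beside 0.03 over all genes, and 12 genes had a ratio above 0 and 70 below, where 55.2 and 44.8% of all genes did. Again none was 1.5-fold higher or lower, where 6.77 and 2.7% of all genes were, and the 2-fold shares were 2.42 and 0.956%. The counting interval lay wholly above 1 for 3 genes and wholly below 1 for 41, beside 29.8 and 20.6% of all genes. Cox5a was the lowest in this comparison, at 1986 in CD4 and 2619 in CD8 (-0.40), and Ndufa5, an accessory subunit of the matrix arm, the highest, at 407 and 327 (0.30). The sign of the comparison at transplant depended on the scale, since 40 genes were below 0 and 4 above 0 under all 5 scalings and the sign of the other 38 differed among them. After transplant 70 genes were below 0 under all 5.

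The ratios after against at transplant were alike in both cell types, which share no library. Across the 82 genes Pearson's r between the CD4 and the CD8 ratio was 0.93 and Spearman's rho 0.89, beside 0.89 and 0.88 across all measured genes, and genes are not independent replicates. The sign was the same for 73 genes, or 89%, beside 87.3% of all genes. The CD8 ratio exceeded the CD4 ratio for 64 genes, or 78%, beside 62.8% of all genes, and the median difference was 0.14, beside 0.09 over all genes. With the trimmed mean of M-values the count was 42, or 51.2% beside 44.6%, and with the median of ratios it was 39, or 47.6% beside 42.2%. The likeness of the cell types was therefore close to that of the whole transcriptome. The difference ranged from -0.38 for Ndufa5, at 289.5, 407, 306 and 327, to 0.55 for Cox4nb, at 504, 589, 407 and 702. These differences were not tested, and their median was -0.01 when the libraries were scaled by the median of ratios.

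Genes that serve the chain without being part of it were described by lists, whose counts stand beside 20.2% of all genes at least 1.5-fold higher and 22.9% lower in CD4, and 24.9 and 21.6% in CD8. On the list of cytochrome c and the enzymes and other proteins of coenzyme Q, 4 of 11 measured genes were at least 1.5-fold higher in CD4. In CD8 5 were, with none lower in either, and the median ratios were 0.02 and 0.37. Cycs, which encodes cytochrome c, stood at 1248, 1943, 1268 and 2353 (log2 ratios 0.63 and 0.88). Pdss1, which makes the side chain of coenzyme Q, stood at 53.7, 183, 48.7 and 244 (1.53 and 2.03). Coq3 and Coq7, enzymes that modify the ring of coenzyme Q, stood at 121, 282, 90 and 291 and at 57.1, 129, 66.9 and 224. The remaining members ranged more narrowly, for example Coq2 at 495, 379.6, 505 and 377 (-0.37 and -0.41).

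Among 23 assembly factors outside the symbol rule, 2 were at least 1.5-fold higher in CD4 and 4 in CD8, none was lower, and both medians were 0.19. Cox17, a copper chaperone of complex IV, stood at 442, 1025, 436 and 1339.9 (1.19 and 1.59). Of 14 regulators of mitochondrial genes, none was at least 1.5-fold higher and 5 were lower in CD4, 1 was higher and 6 lower in CD8, and the medians were -0.45 and -0.34. Ppargc1b, a coactivator that promotes mitochondrial gene expression, stood at 195, 45.6, 209 and 50.8 (-1.80 and -1.77). Polg, the catalytic subunit of the mitochondrial DNA polymerase, stood at 2552, 1225, 1479.9 and 961 (-1.05 and -0.62), and Polrmt, the mitochondrial RNA polymerase, at 748, 421, 736 and 429. The factors whose motifs were searched above were near level or higher, with Nrf1 at 996, 1023, 827 and 1059 and Gabpa at 1785, 2215, 1585 and 2517, except Yy1 at 2731, 2128, 2398 and 2027. The medians of the chain genes and of these regulators thus had opposite signs in both cell types. The list is mixed, since it also holds the mitochondrial polymerases Polg and Polrmt, and its members differed in sign. Nrf1, Gabpa and Gabpb1 were above 0 in both cell types, and Ppargc1b, Pprc1, Esrra and Yy1 below 0 in both.

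Of 10 carriers and users of the proton gradient, 4 were at least 1.5-fold higher in CD4 and 5 in CD8, 1 was lower in each, and the medians were 0.54 and 0.58. Atpif1, an inhibitor that holds back the reverse action of the ATP synthase, stood at 232, 796, 198 and 894 (1.72 and 2.09), a larger ratio than that of any subunit of the enzyme. The ADP/ATP carrier Slc25a5 stood at 5288, 8454, 5521 and 10279 (0.68 and 0.89), and its relative Slc25a4 at 1144, 3060.3, 2412 and 3472 (1.41 and 0.52). Of 14 genes of the citrate cycle, 2 were at least 1.5-fold higher in CD4 and 4 in CD8, 1 was lower in each, and the medians were 0.19 and 0.31. The higher counts of this list and of the assembly factors were near or below the shares of all genes. Idh3a and Fh1, an isocitrate dehydrogenase subunit and fumarase, were the highest, at 911, 1730.4, 1113 and 2417 and at 681, 1255, 559.9 and 1327. Idh2, the NADP-dependent isocitrate dehydrogenase of mitochondria, was the lower gene at 1034, 332, 755 and 217 (-1.60 and -1.73).

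**Figure D5:**
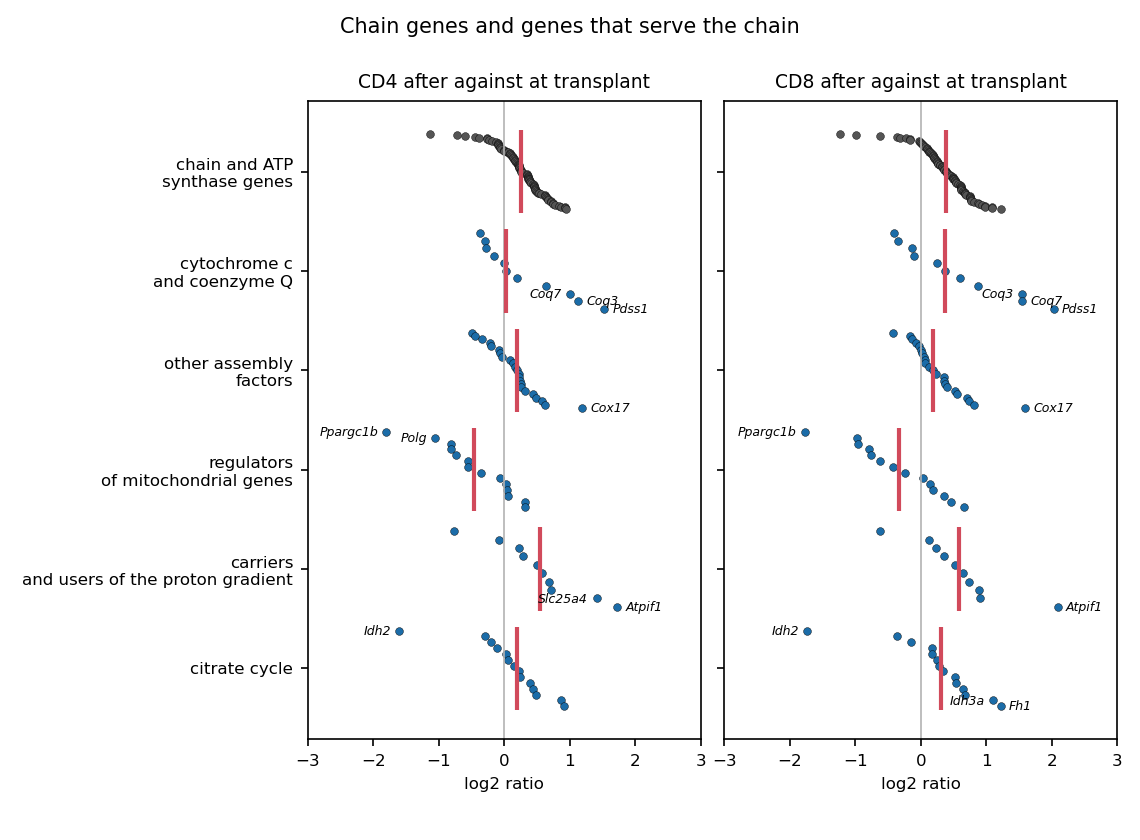
Log2 ratio after against at transplant for the chain genes and for lists of genes that serve the chain, in the CD4 and the CD8 libraries. Points are measured genes, bars are medians, and genes at least 2-fold different outside the chain are named. The regulators lie on both sides of 0, with a median of -0.45 in CD4 and -0.34 in CD8.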

How the data were processed

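Splenic CD4 and CD8 T cells were profiled by RNA-seq in 4 libraries, 1 per group, and groups were taken from the labels. The authors deposited 1 table of a normalised signal per gene, estimated reads not divided by length, in which each library's upper quartile over genes above 0 was about 1000. Per the submitters' processing notes, RSEM 1.1.13, SAMtools 1.2 and mm9 were used. The aligner, gene annotation and method of scaling are not given in the sources used here. Raw counts or normalised values had been allowed for in the design, and since the values were normalised, ratios were taken on them as deposited. In units of 1 read, 86.4, 87.2, 87.3 and 87.6% of the values above 0 came within 0.1 of whole numbers, so no count model was used. The table also held 2 columns with no header and no values.

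Log2 ratios were taken after adding 14.7, and calls were at least 1.5-fold or 2-fold, each beside the share of 9933 measured genes past the same fold. Plain ratios carry exact conditional binomial intervals at 95%. Promoters (GRCm38.p6) came from RefSeq by Entrez gene identifier. Transcript lengths, exon overlaps and similar copies (BLAST 2.17.0) came from the reference annotation by the same identifier, and no coordinates were moved between builds. Python 3.11.15, numpy 2.4.6, pandas 2.3.3 and scipy 1.17.1 were used, and the steps were tested on simulated data.

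The members and lists were chosen with earlier results of these data known. Genes named with values in all 4 libraries were, per complex, the subunits with the largest and smallest values and the members with the highest and lowest ratio in CD4 and CD8, all isoform sets, complex II, the catalytic core, the Ndufaf genes and every member 2-fold different. A gene that this rule takes and a marker gene are not reported here. Other genes given values were chosen after their values were seen. Alternatives were 4 other scalings, pseudocounts 0.25 and 4 times as large, no filter or a filter at 20 ppm, structural subunits only and, added after seeing the data, members without a similar copy or an overlapping gene.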

Additional observations from a re-analysis of the deposited data

Results flagged for a closer look

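In 9 genes the log2 ratio after against at transplant was below 0 in CD4 and above 0 in CD8, and the difference, CD8 minus CD4, was not tested. It was 0.32 for Ndufs3, a core subunit of complex I (-0.12 in CD4 and 0.20 in CD8), 0.29 for Sdha (-0.26 and 0.02), 0.25 for Ndufb3 (-0.10 and 0.15) and 0.22 for Ndufb10 (-0.10 and 0.13). It was 0.17 for Cyc1 (-0.00 and 0.17), 0.13 for Ndufa7 (-0.07 and 0.06), 0.13 for Atp5h (-0.08 and 0.05), 0.12 for Cox4i1 (-0.01 and 0.11) and 0.11 for Ndufa3 (-0.07 and 0.04). Over the 5 scalings 8 of the 9 took both signs in CD4 (for example Ndufs3, from -0.12 to 0.02), and Sdha took both signs in CD8 (-0.07 to 0.11), so 0 of the 9 kept opposite signs under all 5. In none of the 9 did the counting intervals lie off 1 in opposite directions.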

How the results depend on the processing

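No paired analysis was possible because each group held 1 library and the labels give no replicate numbers. Of the recomputed medians and counts over all members, 189 stayed near the reported value and 21 moved. Near meant within 1.5-fold for a count and within the median counting half-width for a median, which is a wide allowance. With the trimmed mean of M-values, 18 members against 27 were at least 1.5-fold higher in CD8, and this was called near. So was a median difference of the CD8 and CD4 ratios of 0.01 against 0.14. The upper quartile scaling could hardly move any, since each library's upper quartile was already about 1000 as deposited. All counts of CD4 against CD8 were 0 to begin with. With equal totals, the CD4 median was 0.40, and 28 members were at least 1.5-fold higher, 1 lower, 4 at least 2-fold higher and 0 lower in CD4, and 6 at least 2-fold higher in CD8. With trimmed mean of M-values and with median of ratios, 2 members were at least 2-fold lower in CD8, 1 was at least 1.5-fold lower in CD4 than CD8 at transplant, and the median of that comparison was -0.16 and -0.18. The median difference of the CD8 and CD4 ratios changed sign with median of ratios, to -0.01. With structural subunits only, 1 member was at least 1.5-fold lower and 0 were 2-fold lower in each cell type, since the left-out genes include Cox7a2l. Among the 40 members without a similar copy or an overlapping gene, an alternative chosen after seeing the data, 7 were at least 1.5-fold higher in CD4 and 12 in CD8, and 0 were 2-fold lower in either, with fewer genes counted. Apart from fewer genes being counted, the cause was not tested. Counting error alone set a median half-width of the log2 ratio of 0.11 to 0.13.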
